A study of Mus musculus with 6 samples.

Results

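The Cyp4 genes encode cytochrome P450 enzymes that hydroxylate fatty acids, and 10 mouse members were considered: Cyp4a10, Cyp4a14, Cyp4a31, Cyp4a32, Cyp4a12a, Cyp4a12b, Cyp4f13, Cyp4f14, Cyp4f15 and Cyp4v3. A member was taken from the array when a probe set carried its symbol and no other. This held for 8 of the 10 members, out of 22180 genes measured in the same way. Cyp4a10 and Cyp4a32 lay only on probe sets that carry a second symbol of the family. Liver RNA came from 3 samples of male cGK1-KO mice and 3 samples of male wild type mice, all of strain background C57BL/6N and, per the series description, 2 months old. cGK1 is the cGMP-dependent protein kinase encoded by Prkg1. The series description gives the knockout as a smooth muscle rescue, so the kinase is meant to be missing outside smooth muscle, and it calls the wild type animals controls. The promoter that drives the rescue and the cells that keep the kinase are not stated in the sources used here, and no agent or diet is named for either group.

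Enzymes of this family place a hydroxyl group at or near the terminal carbon of a fatty acid, the first step of omega-oxidation. Alcohol and aldehyde dehydrogenases then turn the product into a dicarboxylic acid, which peroxisomes shorten. In mouse liver the family answers to 2 separate controls. Cyp4a10 and Cyp4a14 are classical targets of PPARA, the nuclear receptor that senses fatty acids in fasting, and Cyp4a31 and Cyp4a32 are close copies of Cyp4a10. Cyp4a12a and Cyp4a12b are male-biased in mouse liver and kidney and need androgen and the pulsatile growth hormone pattern of males, which acts through the kinase JAK2 and the transcription factor STAT5B. The Cyp4f genes and Cyp4v3 were assigned to neither control. In the mouse genome annotation of RefSeq, the Cyp4a genes neighbour each other on chromosome 4 in the order Cyp4a12a, Cyp4a12b, Cyp4a14, Cyp4a10, Cyp4a31 and Cyp4a32, the Cyp4f genes lie on chromosome 17 and Cyp4v3 on chromosome 8.

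Values are log2 expression, made by the authors with RMA, on 1 array per sample (n = 3 per group). Differences are cGK1-KO minus wild type in log2 units, with the standard error (SE) of a linear model fitted with limma to all 22180 genes. The median over all probe sets, 3.11, is used as the limit below which a signal is called dim. The cGK1-KO arrays spread more than the wild type arrays, with a median standard deviation of a gene of 0.193 against 0.146. cGK1-KO replicate 3 stood apart by a small margin: its mean correlation across genes was 0.978 with the other cGK1-KO arrays and 0.982 with the wild type arrays. The same values were 0.980 and 0.979 for cGK1-KO replicate 1, and 0.981 and 0.980 for cGK1-KO replicate 2. The Cyp4 results and most list counts are therefore also given without cGK1-KO replicate 3. Prkg1 lay near the dim limit in both groups (3.31, 3.04 and 3.22 in cGK1-KO, 3.32, 2.97 and 2.95 in wild type), so its signal could hardly show a loss and does not check the genotype. All 10 hepatocyte markers were above the dim limit on all arrays, with a median wild type mean of 11.8, and Xist, expressed in females, was dim on all 6 arrays (1.84 to 2.11 in cGK1-KO and 1.79 to 2.25 in wild type). Of 3 Y-linked genes added with their values in view, Eif2s3y lay at 5.55 to 6.24 in cGK1-KO and 6.01 to 6.13 in wild type, Uty at 4.52 to 4.89 in cGK1-KO and 5.04 to 5.30 in wild type, and Kdm5d at 3.40 to 4.09 in cGK1-KO and 4.24 to 4.43 in wild type. All 3 were above the dim limit on all arrays, and Uty and Kdm5d lay lower on each cGK1-KO array than on any wild type array (differences -0.40 and -0.56, unadjusted p = 0.0242 and 0.0123 in limma).

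The male-biased pair Cyp4a12a and Cyp4a12b carried by far the largest differences of the 8 members, with Cyp4a12b 8.80-fold lower in cGK1-KO liver and Cyp4a12a lower by an uncertain amount because of dim signals, while the PPARA-driven members lay at most 1.51-fold lower and the Cyp4f and Cyp4v members at most 1.35-fold lower. The differences of all 8 members were negative and had a median of -0.42, where the median over all genes was 0.00. No gene passed an adjusted p of 0.05 with all 6 arrays (0% of 22180), and hence 0 of the 8 members. At an unadjusted p under 0.05, 5 of 8 members were lower (Cyp4a12a, Cyp4a12b, Cyp4a14, Cyp4f15 and Cyp4v3), where 5.46% of all genes were lower, and 0 of 8 were higher, where 5.06% of all genes were higher. The count of 5 became 3 without cGK1-KO replicate 3, where 6.19% of all genes were lower. It also became 3 without wild type replicate 2 or without wild type replicate 3, where the share of all genes was not counted. All 3 cGK1-KO arrays lay below all 3 wild type arrays in 4 of 8 members (Cyp4a12b, Cyp4a14, Cyp4f15 and Cyp4v3), where this held for 9.14% of all genes. Whole liver was measured, so the number of hepatocytes and the RNA per hepatocyte were not measured apart. The 10 hepatocyte markers had a median difference of -0.14, and the part of cell number in the Cyp4 differences was not tested.

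**Figure D1:**
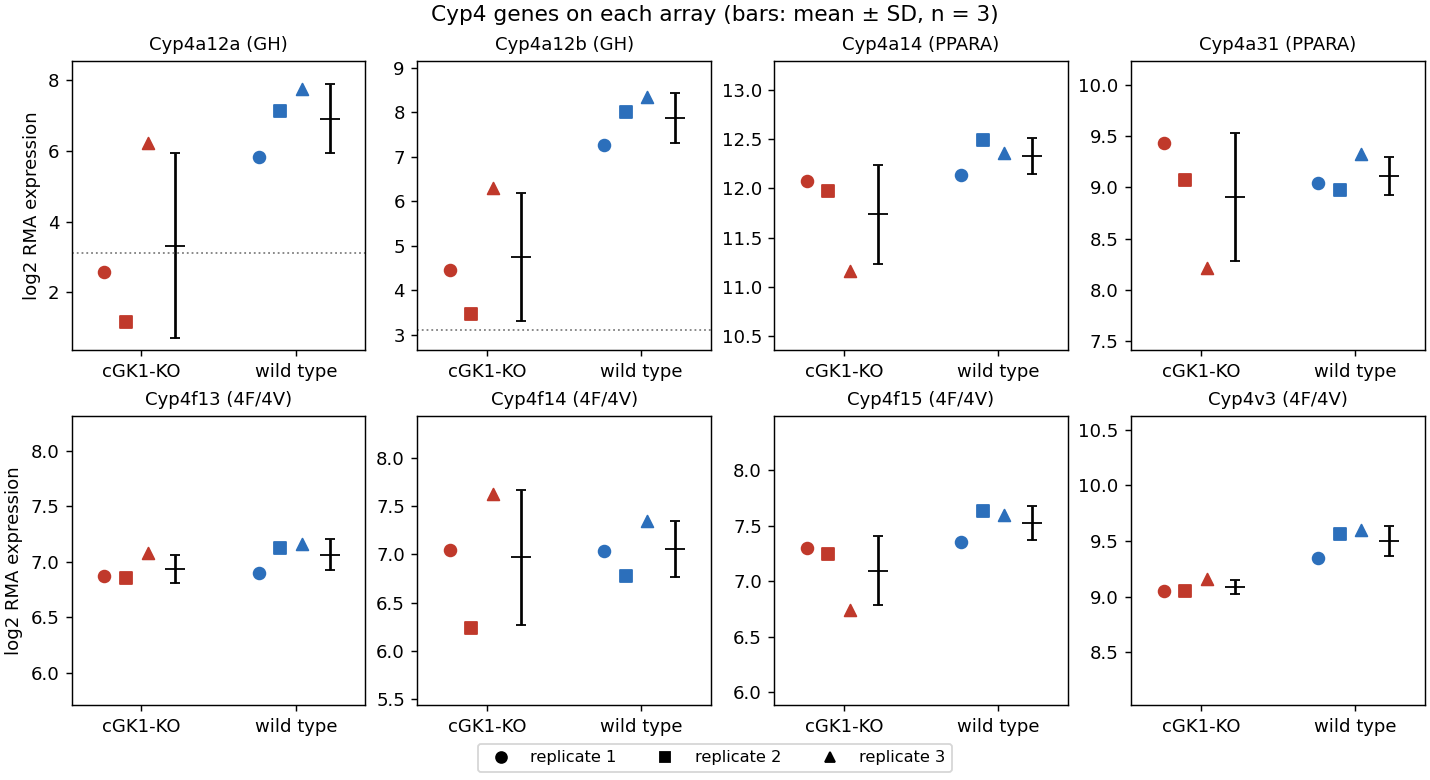
Log2 RMA expression of the 8 Cyp4 genes (vertical axis) on the 3 cGK1-KO arrays (red) and the 3 wild type arrays (blue), with marker shapes for the replicates, bars for mean ± SD (n = 3) and a dotted line at the dim limit of 3.11; axis ranges differ between genes. cGK1-KO replicate 3 (triangle) is the highest cGK1-KO array for Cyp4a12a and Cyp4a12b and the lowest for Cyp4a14, Cyp4a31 and Cyp4f15.

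Cyp4a12b, an omega-hydroxylase gene of male liver, lay at 4.47, 3.46 and 6.29 in cGK1-KO replicates 1 to 3 and at 7.26, 8.01 and 8.35 in wild type replicates 1 to 3. The groups did not overlap, and cGK1-KO replicate 3 was the nearest to wild type. The means were 4.74 ± 1.44 in cGK1-KO and 7.88 ± 0.56 in wild type (SD, n = 3 each). The difference was -3.14 (SE 0.60, 95% confidence interval -4.49 to -1.79), which is 8.80-fold lower, with an unadjusted p of 0.000505 and an adjusted p of 0.196 in limma. By p it stood at rank 57 of 22180 genes.

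Cyp4a12a, the near-identical neighbour that encodes the main arachidonic acid omega-hydroxylase of male mouse kidney, lay at 2.56, 1.17 and 6.24 in cGK1-KO replicates 1 to 3 and at 5.83, 7.14 and 7.74 in wild type replicates 1 to 3. The groups overlapped, because cGK1-KO replicate 3 lay above wild type replicate 1. The signals of cGK1-KO replicates 1 and 2 were dim, so the size of the difference is uncertain. The means were 3.32 ± 2.62 in cGK1-KO and 6.90 ± 0.98 in wild type (SD, n = 3 each), a difference of -3.58 (SE 1.07, 95% confidence interval -6.00 to -1.17), with an unadjusted p of 0.00833 and an adjusted p of 0.326 in limma. Wild type replicate 1 was the lowest wild type array for both genes. Probes of these 2 genes may cross-hybridise, so their agreement is not that of independent measurements.

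Without cGK1-KO replicate 3, both genes passed the threshold and fell in cGK1-KO. Cyp4a12b then differed by -3.92 (SE 0.36, adjusted p = 0.00569 in limma), 15.1-fold lower, and Cyp4a12a by -5.04 (SE 0.55, adjusted p = 0.0123). Both remaining cGK1-KO signals of Cyp4a12a were dim, so no fold is given for it. In the fit without cGK1-KO replicate 3, 0.162% of all genes passed as lower. Over 15 alternative settings the adjusted p ranged from 0.00569 to 0.633 for Cyp4a12b and from 0.0123 to 0.697 for Cyp4a12a, and no other setting passed the threshold. For both genes cGK1-KO replicate 3 was the cGK1-KO array nearest to wild type, so leaving it out had to widen their differences. This array was left out because it stands apart, not because of a label, and the results with all 6 arrays remain the ones reported.

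**Figure D2:**
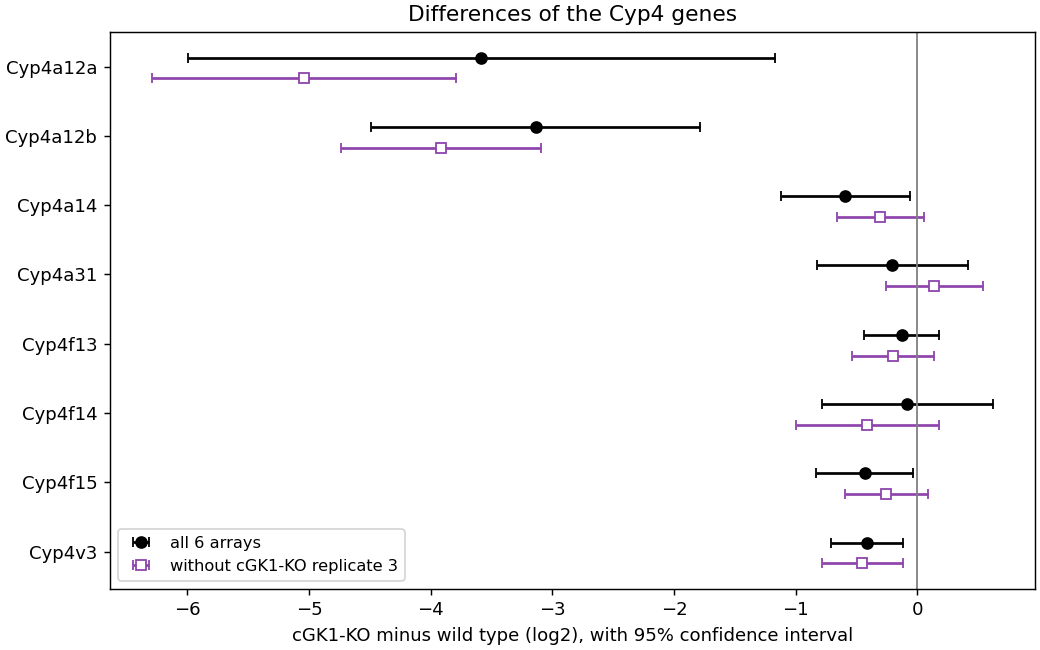
Differences of the 8 Cyp4 genes, cGK1-KO minus wild type in log2 units (horizontal axis) with 95% confidence intervals from limma, with all 6 arrays (filled circles) and without cGK1-KO replicate 3 (open squares). Leaving out that array moves Cyp4a12a to -5.04 and Cyp4a12b to -3.92, away from 0, and moves Cyp4a14 to -0.30 and Cyp4a31 to 0.14.

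Cyp4a14, a fatty acid hydroxylase gene and PPARA target that is expressed more in female than in male mouse liver, lay at 12.07, 11.98 and 11.16 in cGK1-KO replicates 1 to 3 and at 12.13, 12.50 and 12.36 in wild type replicates 1 to 3. The groups were set apart by a narrow gap, and cGK1-KO replicate 3 alone lay far below the wild type arrays. The difference was -0.59 (SE 0.24, 95% confidence interval -1.12 to -0.06), 1.51-fold lower, with an unadjusted p of 0.0323 and an adjusted p of 0.427 in limma. Without cGK1-KO replicate 3 it was -0.30 (unadjusted p = 0.0871).

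Cyp4a31 lay at 9.43, 9.08 and 8.22 in cGK1-KO replicates 1 to 3 and at 9.04, 8.98 and 9.32 in wild type replicates 1 to 3. cGK1-KO replicates 1 and 2 were at wild type level, and replicate 3 lay below every other array. The difference was -0.21 (SE 0.27, 95% confidence interval -0.82 to 0.41, adjusted p = 0.825 in limma) and turned to 0.14 without cGK1-KO replicate 3.

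Both probe sets that name Cyp4a10 name a second gene and give no value for a single member, and they are described after their values were seen. The probe set for Cyp4a10 and Cyp4a31 together lay at 11.86, 11.56 and 11.13 in cGK1-KO replicates 1 to 3 and at 11.73, 11.93 and 11.95 in wild type replicates 1 to 3, a difference of -0.35 (95% confidence interval -0.83 to 0.13), and of -0.16 without cGK1-KO replicate 3. That for Cyp4a32 and Cyp4a10 together lay at 6.53, 6.82 and 5.22 in cGK1-KO replicates 1 to 3 and at 5.69, 6.67 and 6.59 in wild type replicates 1 to 3, a difference of -0.13 (95% confidence interval -1.20 to 0.94), and of 0.36 without cGK1-KO replicate 3. In both, as in Cyp4a14 and Cyp4a31, cGK1-KO replicate 3 was the lowest of the 6 arrays.

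Set side by side, the 2 control groups of the family were lowest in different cGK1-KO samples. Relative to the wild type mean, the median of Cyp4a12a and Cyp4a12b was -3.88, -5.08 and -1.13 in cGK1-KO replicates 1 to 3 and between -0.84 and 0.66 in the wild type arrays. That of Cyp4a14 and Cyp4a31 was 0.03, -0.19 and -1.03 in cGK1-KO replicates 1 to 3 and between -0.13 and 0.12 in the wild type arrays. The median difference was -3.36 for the growth hormone-driven pair and -0.40 for the PPARA-driven pair, a gap of -2.96. Without cGK1-KO replicate 3 the gap was -4.40. These values describe 2 genes in each group, and the gap was not tested.

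In the other genes under the same controls, cGK1-KO replicate 3 mostly held a like place. Of 21 other male-biased, growth hormone-dependent genes, cGK1-KO replicate 3 was the highest cGK1-KO array for 18 (85.7%), where this held for 35% of all genes. Of 33 other PPARA targets it was the lowest cGK1-KO array for 27 (81.8%), where this held for 33.2% of all genes. Among the 8 Cyp4 members it was the highest for 5 (Cyp4a12a, Cyp4a12b, Cyp4f13, Cyp4f14 and Cyp4v3) and the lowest for 3 (Cyp4a14, Cyp4a31 and Cyp4f15). The median of the male-biased list relative to the wild type mean was -1.32, -1.32 and -0.27 in cGK1-KO replicates 1 to 3, and that of the PPARA list was -0.43, -0.42 and -0.81.

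**Figure D3:**
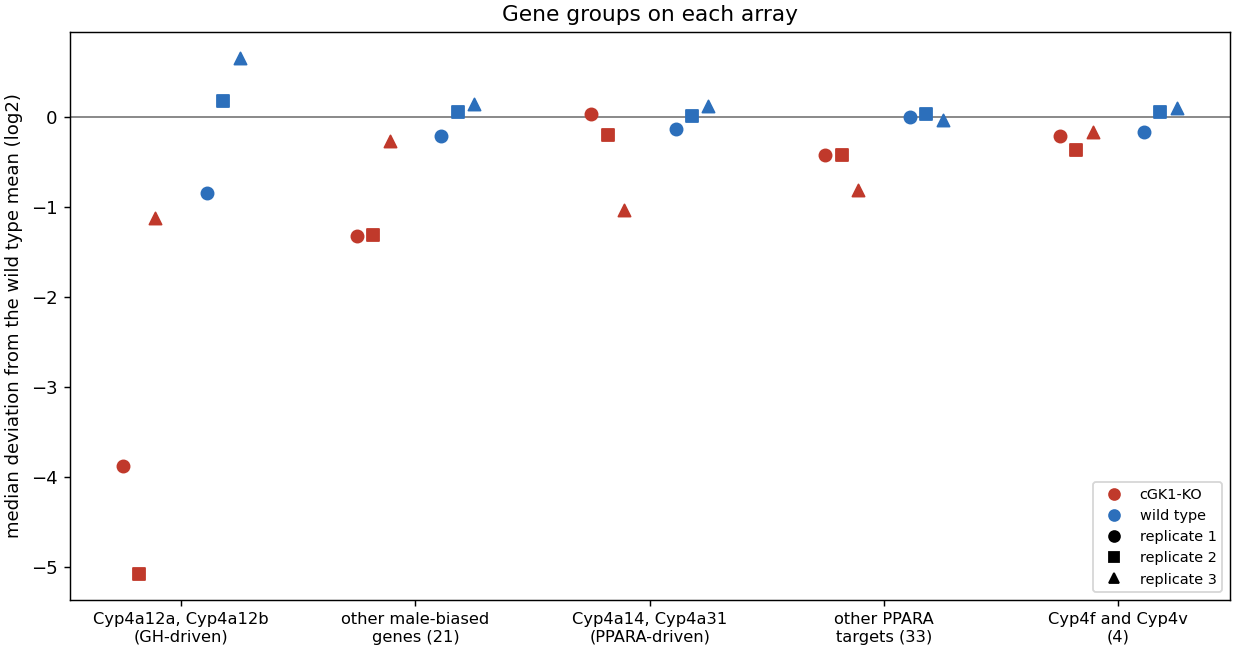
Median deviation from the wild type mean in log2 units (vertical axis) for 5 gene groups (horizontal axis) on each cGK1-KO array (red) and each wild type array (blue), with marker shapes for the replicates. In cGK1-KO replicate 3 (triangle) the PPARA-driven Cyp4a pair lies at -1.03 and the growth hormone-driven pair at -1.13, while in cGK1-KO replicates 1 and 2 the growth hormone-driven pair lies at -3.88 and -5.08.

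Cyp4v3, the mouse counterpart of human CYP4V2, a fatty acid hydroxylase gene mutated in Bietti crystalline dystrophy of the eye, lay at 9.05, 9.05 and 9.16 in cGK1-KO replicates 1 to 3 and at 9.34, 9.56 and 9.60 in wild type replicates 1 to 3. The groups did not overlap, and the cGK1-KO arrays lay within a narrow band. The difference was -0.42 (SE 0.13, 95% confidence interval -0.71 to -0.12), 1.33-fold lower, with an unadjusted p of 0.0109 and an adjusted p of 0.346 in limma. Without cGK1-KO replicate 3 it was -0.45, the only member outside the Cyp4a12 pair still at an unadjusted p under 0.05 (0.0138), where 6.19% of all genes were lower. A probe set naming both Klkb1 and Cyp4v3, described with its values in view, differed by -0.29 (95% confidence interval -0.65 to 0.07), an interval that includes 0. Without cGK1-KO replicate 3 that probe set differed by -0.39 (95% confidence interval -0.76 to -0.03).

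Cyp4f15, of a subfamily that hydroxylates leukotrienes and other eicosanoids, lay at 7.30, 7.24 and 6.74 in cGK1-KO replicates 1 to 3 and at 7.35, 7.63 and 7.60 in wild type replicates 1 to 3. The groups did not overlap, but cGK1-KO replicate 1 lay just below wild type replicate 1, and replicate 3 was the lowest. The difference was -0.43 (SE 0.18, unadjusted p = 0.0364, adjusted p = 0.432 in limma), and -0.25 without cGK1-KO replicate 3 (unadjusted p = 0.127). The remaining Cyp4f members overlapped between the groups. Cyp4f14, which encodes a leukotriene B4 and vitamin E omega-hydroxylase of mouse liver, lay at 7.05, 6.24 and 7.63 in cGK1-KO replicates 1 to 3 and at 7.04, 6.78 and 7.35 in wild type replicates 1 to 3. cGK1-KO held both its lowest and its highest value, and the difference of -0.08 (SE 0.31, 95% confidence interval -0.78 to 0.62) took the other sign without cGK1-KO replicate 2 (0.28) and was -0.41 without cGK1-KO replicate 3. Cyp4f13 lay at 6.87, 6.85 and 7.08 in cGK1-KO replicates 1 to 3 and at 6.90, 7.13 and 7.16 in wild type replicates 1 to 3, a difference of -0.13 (SE 0.14, 95% confidence interval -0.44 to 0.18), and of -0.20 without cGK1-KO replicate 3.

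RefSeq promoter windows (mouse build GRCm38.p6, from 250 bases before to 50 bases after a transcript start) were at hand for 5 of the 10 members. Those of Cyp4v3 and Cyp4f15, lower at an unadjusted p under 0.05, and of Cyp4f13, which did not differ detectably, are shown 5′ to 3′ so that they can be compared, with capitals marking the STAT-type palindrome TTCNNNGAA.
Cyp4v3, chr8:45333114-45333413, minus strand: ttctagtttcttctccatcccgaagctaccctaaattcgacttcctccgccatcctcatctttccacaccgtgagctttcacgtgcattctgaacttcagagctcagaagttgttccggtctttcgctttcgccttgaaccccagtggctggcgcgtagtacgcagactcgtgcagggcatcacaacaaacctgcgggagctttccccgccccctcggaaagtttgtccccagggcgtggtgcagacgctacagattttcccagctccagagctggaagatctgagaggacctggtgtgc
Cyp4f15, chr17:32685409-32685708, plus strand: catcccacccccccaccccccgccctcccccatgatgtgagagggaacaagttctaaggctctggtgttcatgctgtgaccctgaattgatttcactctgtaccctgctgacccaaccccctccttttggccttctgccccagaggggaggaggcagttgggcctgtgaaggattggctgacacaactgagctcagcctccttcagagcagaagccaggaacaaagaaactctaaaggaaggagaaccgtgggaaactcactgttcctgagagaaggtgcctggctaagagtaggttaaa
Cyp4f13, chr17:32947312-32947611, minus strand: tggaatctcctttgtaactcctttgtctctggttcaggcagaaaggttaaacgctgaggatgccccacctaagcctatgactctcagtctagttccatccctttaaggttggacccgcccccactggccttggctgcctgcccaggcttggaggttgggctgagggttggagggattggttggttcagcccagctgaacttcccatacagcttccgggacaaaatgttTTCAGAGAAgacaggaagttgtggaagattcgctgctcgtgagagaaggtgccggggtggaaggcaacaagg

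The palindrome stood in the Cyp4f13 window, with its first base 22 bases before the start, and in none of the windows of Cyp4v3, Cyp4f15, Cyp4f14 and Cyp4a32. Among all 32851 promoter windows of the same length, 8.3% held it. The direct repeat bound by PPARA with its partner RXRA was searched as AGGTCANAGGTCA and, more loosely, as AGGNCANAGGNCA, both strands each, where the first motif is contained in the second. Neither was found in the 8 windows of these 5 members, and 0.0396% and 0.381% of all windows held them. At such rates a match in 8 windows was hardly to be met, so its absence says nothing about these genes. No window was at hand for Cyp4a10, Cyp4a14, Cyp4a31, Cyp4a12a or Cyp4a12b. The windows are short, and a motif outside them would not be seen.

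Of 33 other PPARA targets measured, 24 were lower at an unadjusted p under 0.05 and 1 was higher (Cd36, which encodes a fatty acid uptake receptor), with 0 past the adjusted threshold. Their median difference of -0.63 may be set beside -0.59 for Cyp4a14 and -0.21 for Cyp4a31. Retsat, encoding retinol saturase, lay at 9.63, 9.80 and 9.49 in cGK1-KO replicates 1 to 3 and at 10.64, 10.78 and 10.65 in wild type replicates 1 to 3. Pex11a, which acts in peroxisome division, lay at 6.22, 6.23 and 6.30 in cGK1-KO and at 7.19, 7.19 and 7.09 in wild type. These and Plin5, encoding a lipid droplet coat (difference -1.01, adjusted p = 0.0902 in limma), were low on all 3 cGK1-KO arrays to a like degree. Acot1, an acyl-CoA thioesterase gene, was at 6.61, 6.61 and 5.63 in cGK1-KO and at 7.79, 7.88 and 8.27 in wild type, lowest in cGK1-KO replicate 3 as Cyp4a14 was. These 4 genes were named for the largest moderated statistics among the 33 in these data, so a clear separation was built into their choice. All 4 were below every wild type array by 0.725 or more in cGK1-KO replicates 1 and 2, where this gap was 0.061 for Cyp4a14. Of the 33 targets, 22 lay below all wild type arrays on all 3 cGK1-KO arrays, where this held for 9.14% of all genes. That was also so for Cyp4a14 but not for Cyp4a31. Ppara itself lay at 7.17, 7.01 and 7.07 in cGK1-KO and at 7.47, 7.31 and 7.27 in wild type (difference -0.26, unadjusted p = 0.0681, adjusted p = 0.507), and Rxra differed by -0.07. Without cGK1-KO replicate 3, 14 of the 33 were lower at an unadjusted p under 0.05, where 6.19% of all genes were lower. The adjusted threshold was then passed by 5 of the 33, where 66 of 22180 genes passed it, and the median was -0.44.

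Of 21 other male-biased genes measured, 17 were lower and 0 higher at an unadjusted p under 0.05, with a median difference of -1.09 and 0 past the adjusted threshold. The differences of Cyp4a12a (-3.58) and Cyp4a12b (-3.14) lay near the lower end of that list, whose lowest value was -3.70. Elovl3, a fatty acid elongase gene, lay at 5.21, 4.44 and 6.78 in cGK1-KO replicates 1 to 3 and at 9.31, 8.62 and 9.60 in wild type replicates 1 to 3. Cyp7b1, an oxysterol hydroxylase gene, lay at 5.88, 5.39 and 7.35 in cGK1-KO and at 8.22, 9.90 and 9.56 in wild type. Mup21, a major urinary protein gene, lay at 1.86, 1.47 and 5.22 in cGK1-KO and at 6.62, 6.20 and 6.15 in wild type, dim on the first 2 cGK1-KO arrays as Cyp4a12a was. Cyp2u1, another fatty acid hydroxylase gene of the P450 superfamily, differed by -0.97 (SE 0.20, adjusted p = 0.221 in limma). Without cGK1-KO replicate 3, 18 of the 21 were lower at an unadjusted p under 0.05, where 6.19% of all genes were lower. The adjusted threshold was then passed by 9 of the 21, where 66 of 22180 genes passed it. That array was the highest cGK1-KO array for 18 of the 21, so leaving it out had to widen most of these differences. Of 22 female-biased genes, 10 were higher and 0 lower at an unadjusted p under 0.05, whereas the difference of Cyp4a14 was negative. The list was led by Atp6v0d2 (1.82), Cyp2b9 (5.90), Slc22a26 (2.94) and Slc22a27 (1.48). The sizes of these differences are uncertain, because wild type signals were dim on 2, 2, 1 and 3 of the 3 arrays, in that order. Slc22a27 was also dim on 1 cGK1-KO array. When cGK1-KO replicate 3 was left out, 11 of the 22 were higher at an unadjusted p under 0.05 and 5 passed the adjusted threshold. That array was the lowest cGK1-KO array for 11 of the 22, so leaving it out had to raise the differences of those genes.

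Among 14 measured genes of the growth hormone axis, 7 differences were positive and 7 negative, with a median of 0.00. The list mixes a receptor, a kinase, transcription factors, inhibitors and an induced growth factor, so this split does not measure the activity of the axis. Of these genes, 2 were lower and 2 higher at an unadjusted p under 0.05. Igf1, the growth factor that growth hormone induces in liver, lay at 8.06, 7.41 and 8.64 in cGK1-KO replicates 1 to 3 and at 8.64, 8.84 and 8.78 in wild type replicates 1 to 3, with cGK1-KO replicate 2 lowest and replicate 3 at wild type level, the order of Cyp4a12a and Cyp4a12b. Bcl6, a male-biased repressor gene, differed by -1.09 with overlapping groups (4.63, 5.02 and 4.63 in cGK1-KO, 4.68, 6.92 and 5.95 in wild type). Socs3, encoding an inhibitor of cytokine signalling, was higher by 0.50, and Stat5b, encoding the transcription factor of the male growth hormone response, was higher by 0.41 (adjusted p = 0.454 in limma). The receptor gene Ghr (0.11) and the kinase gene Jak2 (0.20) overlapped between the groups.

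**Figure D4:**
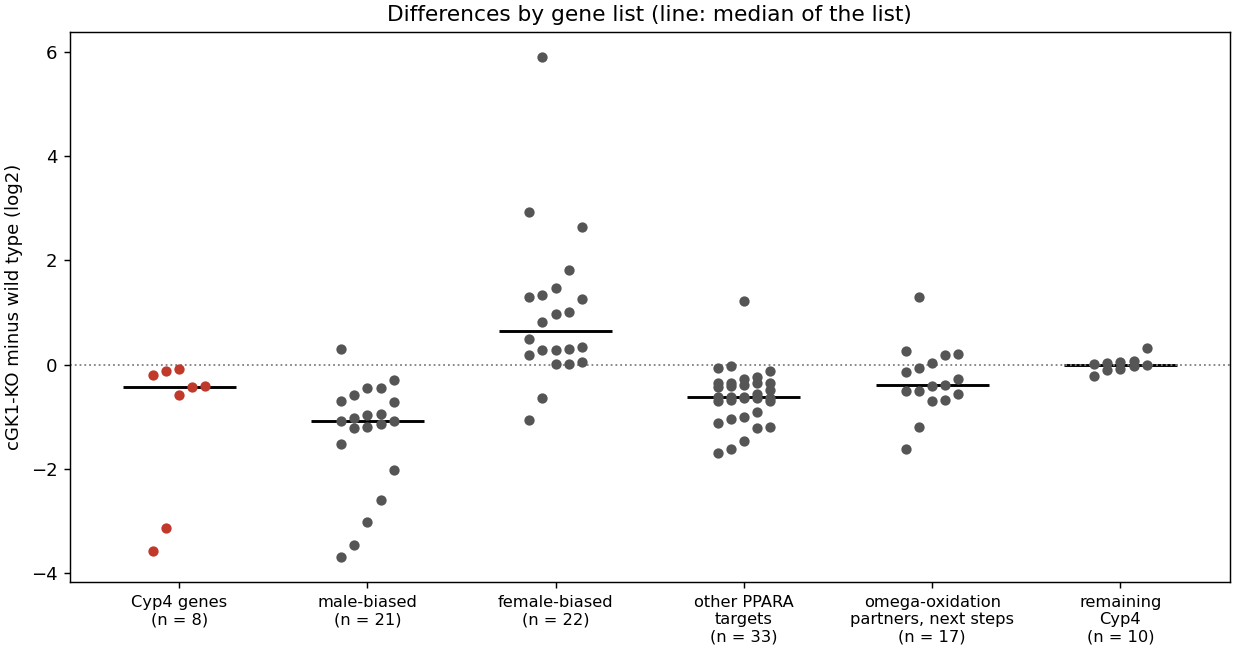
Differences, cGK1-KO minus wild type in log2 units (vertical axis), of the 8 Cyp4 genes (red) and of the measured genes of 5 other lists (grey), each point a gene and each line the median of its list. Cyp4a12a and Cyp4a12b lie among the lowest male-biased genes, and the other 6 Cyp4 genes lie between -0.59 and -0.08.

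Among 17 measured electron donors and later steps of omega-oxidation, 9 were lower and 1 higher at an unadjusted p under 0.05, with a median of -0.39 and 0 past the adjusted threshold. Of the electron donors, Cyb5a differed by -0.14 and Cyb5r3 by 0.27, and Por was not measured. The alcohol dehydrogenase genes Adh1, Adh4 and Adh5 differed by 0.17, -0.28 and 0.20. None of these donor and alcohol dehydrogenase genes was at an unadjusted p under 0.05. Of the 17, 5 are also among the PPARA targets above, including 4 of the 9 lower ones. With cGK1-KO replicate 3 left out, 7 were lower and 1 higher at an unadjusted p under 0.05, where 6.19% of all genes were lower. The adjusted threshold was then passed by 1 of the 17, where 66 of 22180 genes passed it. Aldh3a2, encoding a fatty aldehyde dehydrogenase that acts after the alcohol dehydrogenase step, lay at 8.70, 8.50 and 7.83 in cGK1-KO replicates 1 to 3 and at 8.90, 9.16 and 9.03 in wild type replicates 1 to 3. It is named for its place in the pathway, after its values were seen. Ehhadh, the peroxisomal bifunctional enzyme gene, lay at 9.85, 9.76 and 8.03 in cGK1-KO and at 10.63, 10.97 and 10.89 in wild type, again lowest in cGK1-KO replicate 3. Acaa1b, a peroxisomal thiolase gene, differed by -1.20 and Scp2, a sterol carrier and thiolase gene, by -0.50. Abcd2, which encodes a peroxisomal fatty acid transporter and is also on the female-biased list, was the one that was higher, by 1.29. The 10 other Cyp4 genes measured, among them Cyp4b1, Cyp4f18 and Cyp4x1, had differences between -0.23 and 0.31 with 0 at an unadjusted p under 0.05. Of these 10, 3 (Cyp4a29, Cyp4a30b and Cyp4f40) were dim on all 6 arrays. Cyp4f39 and Cyp4f16, which held the ends of that range, were dim on 5 of 6 arrays. Some of these genes are named with their values in view.

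Genes whose pattern over the 6 arrays was most like that of a member were ranked by Pearson correlation of log2 values among 13190 genes above the dim limit, which is a description over arrays that share the 2 groups. For Cyp4a14 the nearest were Smim10l1, Chrna2, Sucla2, Tmem243 and Cep63 (0.990 to 0.998), with differences between -0.97 (Chrna2) and -0.08 (Smim10l1, the nearest). For Cyp4a12b they were Zfp809, Etfbkmt, Set, the sulfotransferase gene Sult2a8 and the aldo-keto reductase gene Akr1c19 (0.992 to 0.996), with differences between -0.84 and -0.32. For Cyp4v3 they were Tuba1c, Heatr6, Pdia3, Adarb1 and Atrn (0.990 to 0.994), with differences between -0.58 and -0.24. With 13190 candidates and 6 arrays, correlations this high can arise from the search alone.

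Markers of some other cells also differed between the groups. Of 14 macrophage and Kupffer cell markers, 13 were higher at an unadjusted p under 0.05, with a median difference of 0.82. Their summed signal, on the linear scale, was 992 to 2303 in cGK1-KO and 749 to 809.7 in wild type. Relative to the wild type mean their median was 0.68, 1.53 and 0.34 in cGK1-KO replicates 1 to 3, highest where Cyp4a12a and Cyp4a12b were lowest. With cGK1-KO replicate 3 left out, all 14 were higher at an unadjusted p under 0.05 and 2 passed the adjusted threshold. That array was the lowest cGK1-KO array for 13 of the 14, so leaving it out had to raise their differences. Of 6 endothelial markers 2 were higher at an unadjusted p under 0.05, with a summed signal of 644 to 1060.4 in cGK1-KO and 575 to 589.6 in wild type. Of 10 stellate cell and fibroblast markers 2 were higher and 1 lower by the same measure, with a summed signal of 727 to 1463 in cGK1-KO and 655 to 814 in wild type. A linear sum weighs the brightest marker most, here Dcn, whose groups overlapped. Dcn lay at 8.60, 9.80 and 8.69 in cGK1-KO replicates 1 to 3 and at 8.82, 8.54 and 8.39 in wild type replicates 1 to 3. The medians of the endothelial and stellate lists were also highest in cGK1-KO replicate 2 (0.77 for endothelium and 0.62 for stellate cells). In cGK1-KO replicates 1 and 3 they were 0.01 and 0.09 for endothelium, and 0.03 and 0.08 for stellate cells. Of 10 neutrophil markers, 5 of them dim on all arrays, 2 were higher at an unadjusted p under 0.05, as was 1 of 5 T and B cell markers. Of 4 cholangiocyte, 5 kidney and 3 adipose markers, 0 were higher or lower by that measure. Of 22 acute phase genes, 19 were higher at an unadjusted p under 0.05, led by Apcs, Lcn2, Orm2 and Mt2, and their summed signal was 38328 to 57597 in cGK1-KO and 26045 to 28465 in wild type. Leaving out cGK1-KO replicate 3, 17 of the 22 were higher at an unadjusted p under 0.05 and 5 passed the adjusted threshold. For 13 of the 22 that array was the lowest cGK1-KO array, so leaving it out had to raise their differences. The summed signal of the 10 hepatocyte markers was 35618 to 35861 in cGK1-KO and 36941 to 39578 in wild type, and Hnf4a, a hepatocyte identity gene, differed by -0.36. The pericentral and periportal hepatocyte lists had medians of 0.01 and -0.01. The part of these cell and inflammation markers in the Cyp4 differences was not tested.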

How the data were processed

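Affymetrix whole-transcript arrays were hybridised with liver RNA, 1 array for each of 6 samples, labelled from 100 ng of column-purified RNA per the labels' protocols. The deposited log2 values were made by the authors with Affymetrix Expression Console 1.4.1 and RMA, per the submitters' processing notes. RMA sets all arrays to a common distribution, so a shift of most transcripts would not be seen. Array medians were 3.11 to 3.16. Of 41345 probe sets, 23521 had 1 gene symbol in the platform annotation, 1814 several and 16010 none listed here. For a gene with several such probe sets the one with the highest mean was used, which gave 22180 genes. No array pair held identical values.

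A linear model of group was fitted in R 4.3.3 with limma 3.58.1 (lmFit, eBayes; statmod 1.5.0), with 2-sided p-values adjusted by the Benjamini-Hochberg method over all genes. Since no label states that each replicate is a separate animal, p-values cover the spread between these samples, which may be technical, and the number of arrays limits the precision. On simulated data with 22180 genes and 3 against 3 arrays, 74% of 50 genes shifted by 1 log2 unit and 2% of 50 shifted by 0.5 were recovered at an adjusted p under 0.05, and 96% and 100% of 50 each at shifts of 2 and 4, with 3 false calls. Simulated spreads were equal in both groups, unlike the real ones, and were drawn from the fitted model. Only genes above the dim limit were shifted. In the real data no gene passed, and Cyp4a12b, with a difference of -3.14, had an adjusted p of 0.196 in limma. The simulated rates may therefore overstate what these arrays can recover. All members found were named. From each list the 4 genes with the largest moderated statistic could be named, as could regulators fixed beforehand, and others are marked. The members and lists were chosen with earlier results of these data known. Of 250 list entries 228 were measured. Near-identical Cyp4a genes may share probes. Same-numbered samples did not deviate together (correlations 0.01, 0.05 and 0.02), so the replicate numbers were not taken as pairs.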

Additional observations from a re-analysis of the deposited data

How the results depend on the processing

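With 3 arrays per group, single arrays decide several values, and signals below the dim limit have no reliable size. The count of all genes past the adjusted threshold, 0 with all arrays, was 8 with a filter on dim probe sets, 25 with a variance prior that follows intensity and 1 with the replicate number as a block (replicate block), and ranged from 0 to 66 when single arrays were left out (66 without cGK1-KO replicate 3 and 3 without wild type replicate 3). The count of members past it was 0 under all 9 other settings, the replicate block included, and 0 to 2 when single arrays were left out. The count of members at an unadjusted p under 0.05, 5 with all arrays, was 3 when all 41345 probe sets were tested, 4 after a further quantile normalization, and 3 to 5 when single arrays were left out (3 without cGK1-KO replicate 3, wild type replicate 2 or wild type replicate 3). The share of all genes that were lower at this threshold was 5.46% with all arrays and 6.19% without cGK1-KO replicate 3. It was not counted for the other settings, so their member counts have no share to be read against. Median differences with single arrays left out ranged from -4.48 to -2.50 for the growth hormone-driven pair, from -0.61 to -0.08 for the PPARA-driven pair and from -0.35 to -0.22 for the Cyp4f and Cyp4v members. With single arrays left out, Cyp4a31 ranged from -0.47 to 0.14 and Cyp4f14 from -0.41 to 0.28, with the sign turned for Cyp4a31 without cGK1-KO replicate 3 and for Cyp4f14 without cGK1-KO replicate 2 or wild type replicate 3 (0.06). The adjusted p ranged over the 15 alternatives from 0.0123 to 0.697 for Cyp4a12a and from 0.00569 to 0.633 for Cyp4a12b, past the threshold only without cGK1-KO replicate 3. Beyond the array left out, the cause was not tested.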
